A study of Mus musculus with 24 samples.

Results

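Oxidative phosphorylation subunit genes encode the proteins of the mitochondrial respiratory chain and of ATP synthase. The members were found by symbol in the platform annotation: every gene whose symbol starts with Nduf, Uqcr, Atp5, Cox4, Cox5, Cox6, Cox7 or Cox8, and Sdha, Sdhb, Sdhc, Sdhd, Cyc1 and Cycs, without the Ndufaf assembly factors and without pseudogenes. This gave 84 of the 18193 genes that had a probe set with exactly 1 symbol, and 80 of the 84 passed the filter on low values, a log2 value over 4 on at least 4 arrays. By complex, 33 of 34 complex I genes, 4 of 4 complex II genes, 9 of 9 complex III genes, 14 of 17 complex IV genes and 17 of 17 ATP synthase genes were tested, with the cytochrome c gene Cycs and 2 associated genes, Cox7a2l and Ndufa4l2. The 4 members below the filter were Cox7a1, Cox7b2, Cox8b and Ndufb4, with mean log2 values of 3.48, 3.23, 3.50 and 3.08. Ndufb4 also lies on a probe set shared with other genes, which had a mean of 10.1 and was not used, so its low value is that of 1 probe set. Ndufa11 and Ndufs6 were found only on probe sets shared with other genes and were not analysed here.

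The arrays measured RNA from the suprachiasmatic nucleus (SCN) of adult C57BL/6 mice, the hypothalamic nucleus that holds the circadian pacemaker. All mice had spent at least 7 days in constant dim red light and were killed 3.5 h after a phase-advancing light pulse of 30 min or a sham handling. Ventral (core), central and dorsal SCN were cut by laser microdissection from haematoxylin-stained sections of 25 µm, which gave 6 groups of 4 arrays: pulsed and sham for each region. RNA was amplified and labelled in 2 batches, and each group had 2 arrays in batch A (replicates 1 and 2) and 2 in batch B (replicates 3 and 4). The mice were 8 weeks old when obtained, and no genetic change separates the groups. The labels do not say which arrays share an animal or how many animals were pooled, so p-values measure only the spread between these samples.

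Electrons enter the chain through complex I (NADH dehydrogenase) or complex II (succinate dehydrogenase), pass through complex III and cytochrome c to complex IV (cytochrome c oxidase), and the proton gradient that this builds drives ATP synthase, also called complex V. Nearly all subunits are encoded in the nucleus, and the few encoded by mitochondrial DNA lie outside this gene list. Neurons depend on this pathway for the ion pumping that follows firing, and neuronal firing in the SCN varies with the circadian cycle.

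Many of these genes are known to be controlled through promoter elements for NRF1, for ETS factors such as GABP, and for YY1, and promoter stretches are shown because most members lay on the same side of 0 in the region differences. Promoter windows reaching from 250 bases before to 50 bases after the start were taken from RefSeq, build GRCm38.p6, and 68 of the 84 members had at least 1 entry, with 73 windows in all. Both strands were searched for the NRF1 motif (GCGCA, then any base, then GCGC), the ETS motif CCGGAAG and the YY1 motif AAGATGGC, and a window could hold several. At least 1 of these motifs occurred in 50.7% of member windows, in 25.4% of the windows of tested genes and in 14.7% of all windows. The NRF1 motif occurred in 21.9% of member windows, 9.09% of the windows of tested genes and 4.6% of all windows. The ETS motif occurred in 23.3%, 15.5% and 8.86% of them, and the YY1 motif in 12.3%, 4.01% and 2.75%. Of the 10 members that were lower in central than in dorsal SCN, 9 had a window, and 2 of these windows, those of Atp5k and Ndufa3, held a motif. The 5 stretches that follow are the 120 bases directly before a start, 5′ to 3′ on the strand of the gene, with motif matches of either strand in capitals. They show a member that was lower in central SCN and has no match (Atp5b), one that was lower and has a match (Atp5k), and members with several matches (Sdha, Cox6a1 and Atp5j). The stretches lie at chr10:128083187-128083306 (+ strand, Atp5b), chr5:108434400-108434519 (- strand, Atp5k), chr13:74350241-74350360 (- strand, Sdha), chr5:115348959-115349078 (- strand, Cox6a1) and chr16:84834977-84835096 (- strand, Atp5j).
Atp5b: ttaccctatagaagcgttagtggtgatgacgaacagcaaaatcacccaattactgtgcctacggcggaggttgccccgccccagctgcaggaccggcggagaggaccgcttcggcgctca
Atp5k: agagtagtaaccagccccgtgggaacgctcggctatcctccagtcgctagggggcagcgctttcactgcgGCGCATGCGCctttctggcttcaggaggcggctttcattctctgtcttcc
Sdha: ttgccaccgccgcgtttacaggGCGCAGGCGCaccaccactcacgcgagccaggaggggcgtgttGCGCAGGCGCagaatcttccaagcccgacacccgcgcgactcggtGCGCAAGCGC
Cox6a1: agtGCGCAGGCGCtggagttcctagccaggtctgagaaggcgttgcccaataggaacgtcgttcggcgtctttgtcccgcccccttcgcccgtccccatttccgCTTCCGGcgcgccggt
Atp5j: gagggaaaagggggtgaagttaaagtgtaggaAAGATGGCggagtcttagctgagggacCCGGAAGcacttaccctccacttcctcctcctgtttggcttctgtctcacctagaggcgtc
A match is a description of letters in these windows. The Atp5k capitals mark an NRF1 match, those of Sdha 3 NRF1 matches, those of Cox6a1 an NRF1 and an ETS match, and those of Atp5j a YY1 and an ETS match.

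Array medians over all probe sets were 3.52 to 3.62 in batch A and 4.81 to 5.07 in batch B, so batch was a term in each comparison and levels are read within a batch. Dorsal pulsed replicate 4 stood apart, with a median correlation of 0.913 with the arrays of its batch and a Gapdh 3′ minus 5′ difference of 5.41, against at most 1.07 on the other batch B arrays. Central pulsed replicate 2 had a median correlation of 0.955, and the other arrays lay between 0.976 and 0.987. The labelled regions differed in their marker neuropeptides: Vip was higher in ventral than in dorsal SCN (log2 difference 3.43, adjusted p = 9.97e-08, limma), and Avp was lower (-1.43, adjusted p = 0.00074, limma).

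The array medians of the respiratory chain genes were highest in the dorsal SCN. Each member's log2 value was set relative to its mean over the 12 arrays of the batch, and the median over the 80 tested members was taken on each array. These array medians ran from 0.0230 to 0.332 in the 8 dorsal arrays (median 0.1496), from -0.324 to 0.0239 in the 8 central arrays (median -0.0943) and from -0.120 to 0.0669 in the 8 ventral arrays (median -0.0613). All 8 dorsal medians were above 0, and the ranges of central and ventral SCN overlapped. The SD of these medians within groups was 0.117 after removal of the batch.

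**Figure D1:**
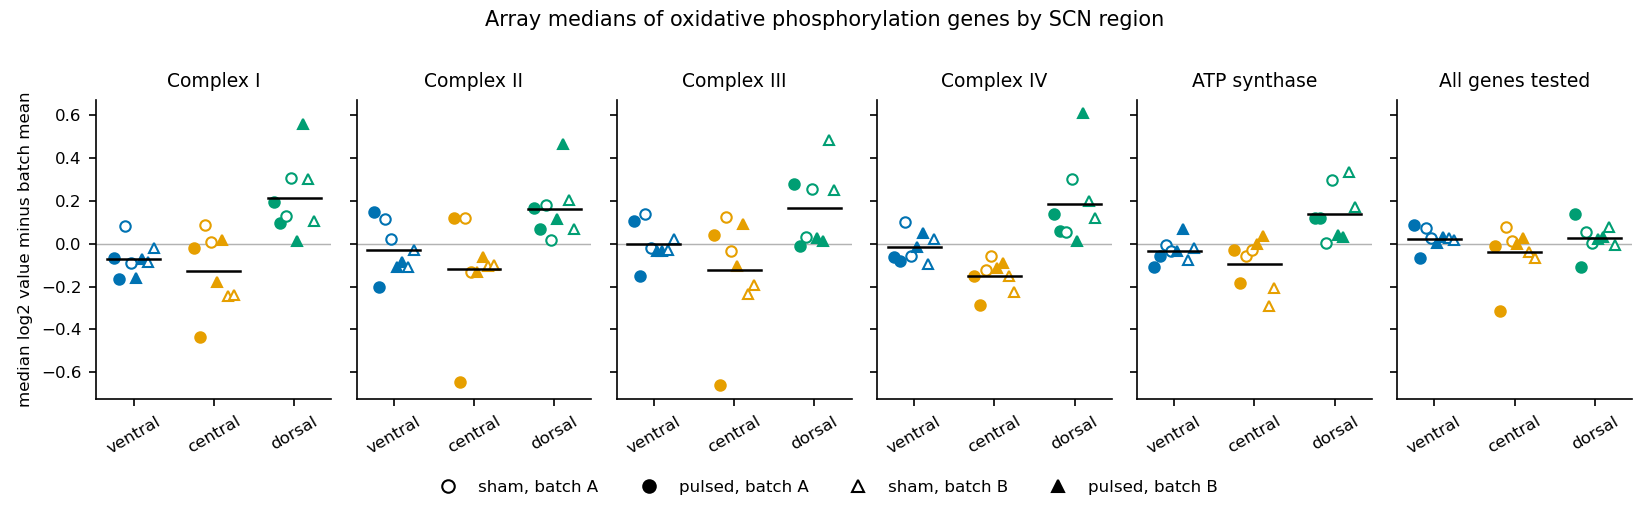
Median log2 value of the tested members of each complex on each of the 24 arrays, relative to the mean of the batch (vertical axis, log2), by SCN region, with the same median over all tested genes at the right; circles are batch A, triangles batch B, filled symbols pulsed, open symbols sham, and bars the mean of 8 arrays. For complex I all dorsal arrays lie between 0.0125 and 0.559, while central arrays lie between -0.434 and 0.0892.

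In each complex the median over arrays was highest in dorsal SCN, followed by ventral and then central SCN. Complex I medians were 0.0125 to 0.559 in dorsal, -0.434 to 0.0892 in central and -0.163 to 0.0842 in ventral SCN, ranges that overlap. For complex IV the dorsal arrays (0.0128 to 0.608) and the central arrays (-0.288 to -0.0587) did not overlap. For complex III the dorsal arrays (-0.0121 to 0.484) and the central arrays (-0.662 to 0.125) overlapped, as did those of complex II (0.0155 to 0.464 and -0.646 to 0.120) and ATP synthase (0.00502 to 0.337 and -0.291 to 0.0358). The highest complex I and complex IV medians (0.559 and 0.608) both came from dorsal pulsed replicate 4, whose complex III and ATP synthase medians were 0.0117 and 0.0315. The lowest complex I, II, III and IV medians came from central pulsed replicate 2, where the median of all tested genes was also low, at -0.315.

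In central against dorsal SCN, 10 of the 80 tested members were lower and 0 were higher at an adjusted p under 0.05 (limma, 8 against 8 arrays, Benjamini-Hochberg adjustment over all 13494 tested genes). Over all tested genes 5.14% were lower and 1.96% higher by the same rule, 7.11% in either direction. The log2 difference was below 0 for 76 of 80 members, with a median of -0.27, against 58.7% of all tested genes and a median of -0.05. It was below 0 for 75 of 80 with arrays centred on their medians and for 74 of 79 after quantile normalization. Without adjustment, 41 of 80 members had p under 0.05, against 19.3% of all tested genes. In these bulk samples, fewer cells of a type and less RNA per cell cannot be told apart.

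The count of members called depended on which arrays were used, while the median stayed below 0 in each of the fits that follow. The labels number the replicates alike in every region, and arrays of the same number deviated together, so values with blocks are given too. With the replicate number as a block, 18 of 80 members were lower (6.83% of all tested genes were lower). With treatment and number together as a random block (the random replicate block), 27 were (8.54% of all tested genes). The shares given for the fits that follow are also those of all tested genes that were lower. Within batch A alone 1 member was lower (0.889% of all tested genes) and within batch B alone 0 (1.15%), with medians of -0.22 and -0.32 and 78 and 67 of 80 members below 0. With sham arrays only 1 member was lower (1.07%), and with pulsed arrays only 0 (2.67%). When 1 array at a time was left out, the count was 4 without central pulsed replicate 3 (4.29% of all tested genes), central sham replicate 3 (4.08%) or 4 (3.88%), or dorsal sham replicate 2 (4.59%) or 3 (3.74%). It was 16 without dorsal pulsed replicate 2 (6.85%) and 20 without dorsal pulsed replicate 3 (5.71%). Without dorsal pulsed replicate 4 the count was 13 (6.51%), with 78 of 80 members below 0 and a median of -0.26.

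**Figure D2:**
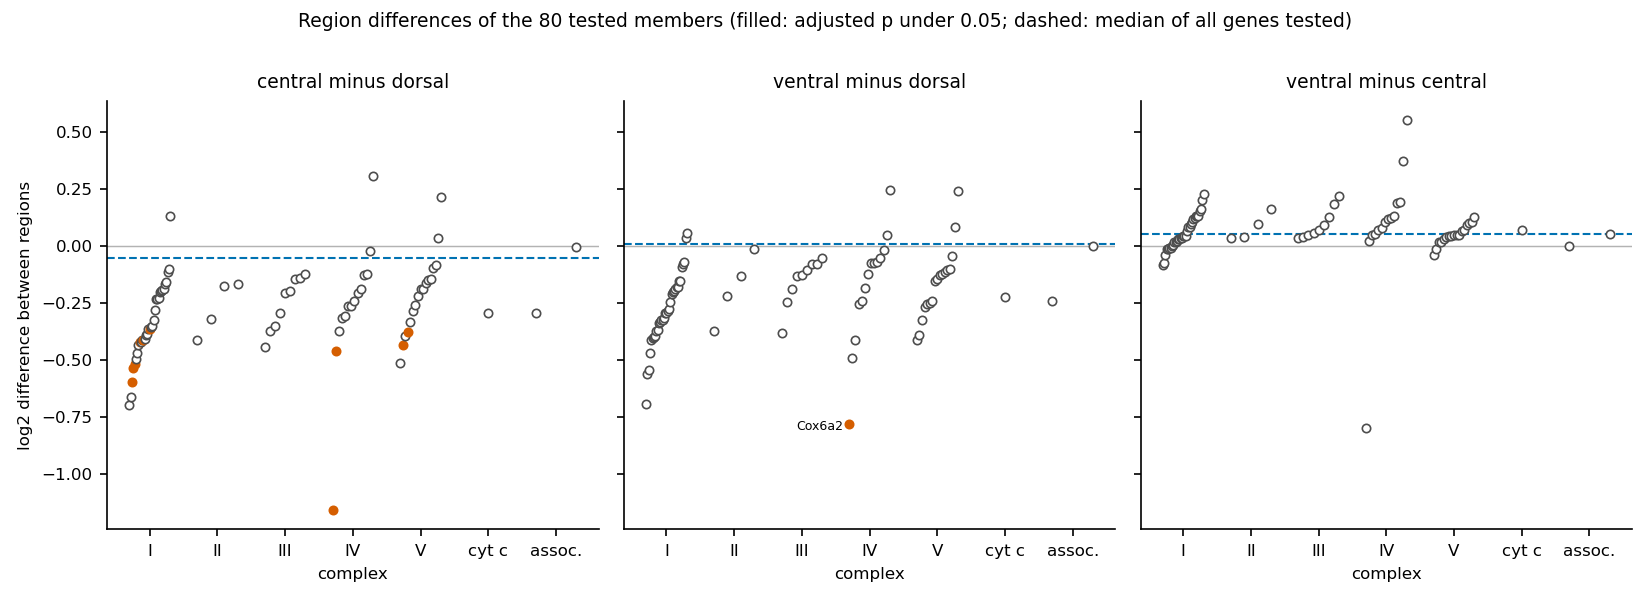
Log2 difference between regions (vertical axis) of each of the 80 tested members by complex, for central minus dorsal, ventral minus dorsal and ventral minus central SCN; filled points have an adjusted p under 0.05 and the dashed line is the median of all tested genes. In central minus dorsal SCN 76 members lie below 0 and 10 are filled, and in ventral minus central SCN 0 are filled.

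Complex I, the largest assembly and the entry point for electrons from NADH, held 6 of the 10 lower members: Ndufa12, Ndufb5, Ndufv1, Ndufa3, Ndufa13 and Ndufa10. Its 33 tested genes had a median central minus dorsal difference of -0.36, and 32 of them lay below 0. Ndufa12 is an accessory subunit of the arm that reaches into the matrix. In batch A its log2 values were 9.58 and 9.64 (sham) and 9.70 and 9.26 (pulsed) in central SCN, and 9.71 and 10.11 (sham) and 9.89 and 9.81 (pulsed) in dorsal SCN. In batch B they were 10.31 and 10.24 (sham) and 10.42 and 10.49 (pulsed) in central SCN, and 10.91 and 10.68 (sham) and 10.57 and 10.87 (pulsed) in dorsal SCN. Every dorsal array lay above every central array of its batch, and the log2 difference was -0.36 ± 0.0922 (SE, adjusted p = 0.0157, limma).

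Ndufb5, an accessory subunit of the membrane arm, showed the same separation. Its central values in batch A were 9.62 and 9.24 (sham) and 9.55 and 9.08 (pulsed), and its dorsal values were 9.87 and 9.88 (sham) and 9.75 and 9.70 (pulsed). In batch B its central values were 10.71 and 10.68 (sham) and 10.73 and 10.85 (pulsed), against 11.23 and 11.09 (sham) and 10.99 and 12.10 (pulsed) in dorsal SCN. The groups did not overlap in either batch, the highest value was that of dorsal pulsed replicate 4, and the log2 difference was -0.52 ± 0.133 (SE, adjusted p = 0.0169, limma). Without that array it was -0.39.

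Ndufv1 carries the flavin site at which NADH is oxidised. Its batch A values in central SCN were 9.74 and 9.48 (sham) and 9.44 and 9.25 (pulsed), against 9.87 and 10.12 (sham) and 9.95 and 9.72 (pulsed) in dorsal SCN. In batch B they were 9.74 and 9.74 (sham) and 9.50 and 9.75 (pulsed) in central SCN, and 10.39 and 9.84 (sham) and 10.02 and 11.51 (pulsed) in dorsal SCN. Batch A central and dorsal arrays overlapped only in that central sham replicate 1 lay above dorsal pulsed replicate 2, and batch B arrays did not overlap. The log2 difference was -0.60 ± 0.168 (SE, adjusted p = 0.0304, limma), and -0.42 without dorsal pulsed replicate 4.

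The accessory subunits Ndufa3, Ndufa13 and Ndufa10 were lower by 0.53, 0.42 and 0.41 on the log2 scale, with adjusted p of 0.035, 0.0399 and 0.0421 (limma). For Ndufa3 the batch A arrays read 10.32 to 10.72 in central and 10.71 to 10.97 in dorsal SCN, the batch B arrays 10.02 to 10.54 and 10.39 to 11.79, and the regions overlapped in both batches. The Ndufa13 ranges overlapped in batch A (10.91 to 11.29 in central, 11.01 to 11.43 in dorsal SCN) and were apart in batch B (10.53 to 10.96 and 11.25 to 11.98). The Ndufa10 ranges behaved likewise, with 6.70 to 7.69 and 7.59 to 7.82 in batch A and 8.61 to 8.81 and 8.85 to 9.55 in batch B. Ndufa3 passed in 17, Ndufa13 in 13 and Ndufa10 in 9 of the 24 fits that each left out 1 array.

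The iron-sulphur core subunits Ndufs7 and Ndufs8 had differences of -0.70 and -0.66 but did not pass (adjusted p = 0.095 and 0.087, limma). The Ndufs7 dorsal arrays lay above the central arrays in both batches (10.89 to 11.14 against 10.60 to 10.78 in batch A, and 9.85 to 12.39 against 9.27 to 9.79 in batch B), and the value of 12.39 was that of dorsal pulsed replicate 4. Ndufs4, an accessory subunit of the matrix arm, was the 1 complex I gene above 0.

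Complex II, which oxidises succinate and is shared with the tricarboxylic acid cycle, had 0 of 4 genes called, with differences from -0.41 to -0.17. Its smallest p was that of Sdhb, the iron-sulphur subunit (-0.41 ± 0.142, SE, adjusted p = 0.0868, limma). Complex III, the cytochrome bc1 complex, had 0 of 9 called, with all 9 below 0 and a median of -0.21, and the smallest p was that of Cyc1, which holds the haem of cytochrome c1 (-0.44 ± 0.171, SE, adjusted p = 0.136, limma). Cycs, the mobile electron carrier between complexes III and IV, had a difference of -0.29 ± 0.111 (SE, adjusted p = 0.129, limma).

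In complex IV, Cox6a2 and Cox5b were lower in central SCN, and 13 of 14 tested genes lay below 0 with a median of -0.25. Cox6a2 encodes the isoform of subunit 6a best known from heart and skeletal muscle, and it showed the largest difference of the 80 members. In batch A its log2 values were 3.70 and 3.76 (sham) and 3.78 and 3.55 (pulsed) in central SCN, and 5.31 and 5.00 (sham) and 4.90 and 3.96 (pulsed) in dorsal SCN. In batch B they were 4.95 and 3.85 (sham) and 4.61 and 4.79 (pulsed) in central SCN, and 6.68 and 5.44 (sham) and 5.05 and 5.91 (pulsed) in dorsal SCN. The regions did not overlap in either batch, and the log2 difference was -1.16 ± 0.186 (SE, adjusted p = 0.000271, limma). Its signal was low: 17 of 24 arrays exceeded the filter level of 4, and the central arrays lay near or below the medians of all probe sets on the arrays of their batch (3.52 to 3.62 in batch A and 4.81 to 5.07 in batch B), so no fold is given. It passed in all 24 fits that each left out 1 array, with a highest adjusted p of 0.000912.

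**Figure D3:**
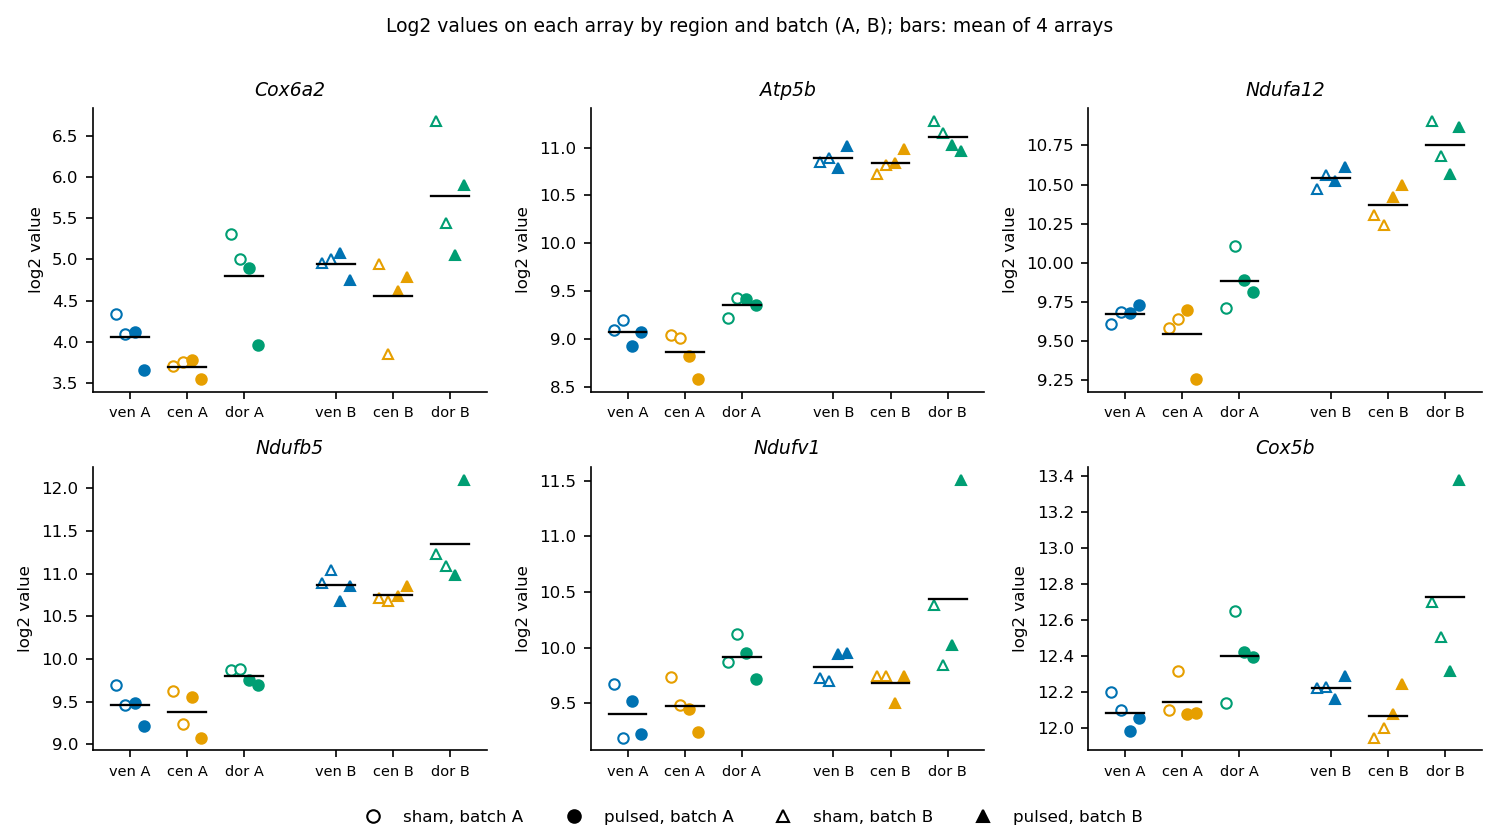
Log2 values (vertical axis) of Cox6a2, Atp5b, Ndufa12, Ndufb5, Ndufv1 and Cox5b on each array, by region (ventral, central, dorsal) and batch; circles are batch A, triangles batch B, filled symbols pulsed, open symbols sham, and bars the mean of 4 arrays. The dorsal arrays of Cox6a2, Ndufa12 and Ndufb5 lie above the central arrays of the same batch in both batches, and dorsal pulsed replicate 4 is the highest dorsal array of Ndufb5 (12.10), Ndufv1 (11.51) and Cox5b (13.38).

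Cox5b, a nuclear-encoded subunit on the matrix side, had values of 12.10 and 12.32 (sham) and 12.07 and 12.08 (pulsed) in central SCN of batch A, against 12.14 and 12.65 (sham) and 12.42 and 12.39 (pulsed) in dorsal SCN. In batch B they were 11.94 and 11.997 (sham) and 12.07 and 12.24 (pulsed) in central SCN, and 12.70 and 12.51 (sham) and 12.32 and 13.38 (pulsed) in dorsal SCN. The batch A arrays overlapped through dorsal sham replicate 1, and the batch B arrays did not overlap. The log2 difference was -0.46 ± 0.129 (SE, adjusted p = 0.0301, limma), and -0.34 without dorsal pulsed replicate 4.

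Cox6a1, the widely expressed isoform of subunit 6a, had a central minus dorsal difference of -0.32 ± 0.0974 (SE, adjusted p = 0.0518, limma). Whether Cox6a1 and Cox6a2 differed in this was not tested. Cox4i1 and Cox4i2 had differences of -0.21 and -0.26, Cox6b1 and Cox6b2 of -0.26 and -0.31, Cox7a2 of -0.02 and Cox8a of -0.24, and none of these passed. Cox8c, an isoform known from testis, ranged from 2.55 to 6.42 over the 24 arrays and had a difference of 0.31 with a 95% interval from -0.80 to 1.41. Ndufa4, once assigned to complex I and now to complex IV, had a difference of -0.13, and its paralogue Ndufa4l2, which is known to rise in hypoxia, of -0.00.

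In ATP synthase, Atp5b and Atp5k were lower in central SCN, and 15 of 17 genes lay below 0 with a median of -0.19. Atp5b encodes the catalytic beta subunit. Its batch A values were 9.04 and 9.01 (sham) and 8.82 and 8.58 (pulsed) in central SCN, and 9.22 and 9.43 (sham) and 9.42 and 9.35 (pulsed) in dorsal SCN. In batch B they were 10.72 and 10.82 (sham) and 10.84 and 10.98 (pulsed) in central SCN, and 11.28 and 11.15 (sham) and 11.03 and 10.97 (pulsed) in dorsal SCN. The batch A arrays were apart, the batch B arrays overlapped in 1 pair (10.98 in central and 10.97 in dorsal SCN), and the log2 difference was -0.38 ± 0.093 (SE, adjusted p = 0.0125, limma).

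Atp5k encodes subunit e of the membrane part of ATP synthase. Its batch A arrays read 9.04 to 9.59 in central and 9.49 to 9.98 in dorsal SCN, and its batch B arrays 10.03 to 10.73 and 10.68 to 11.15. The ranges overlapped in both batches, and the log2 difference was -0.44 ± 0.12 (SE, adjusted p = 0.0271, limma). The genes Atp5g1, Atp5g2 and Atp5g3, which encode the same mature subunit c, had differences of -0.09, 0.21 and -0.15, and none passed. The Atp5g2 difference was -0.22 in batch A and 0.65 in batch B, where dorsal pulsed replicate 4 read 7.70.

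Over the whole list, 66 of 80 members were lower in central than in dorsal SCN in both batches and 1 was higher in both. The same count was not made over all tested genes, of which 58.7% were below 0 in the fit of both batches together. For 5 members, Cox6a2, Ndufa12, Ndufb5, Ndufs7 and Atp5h, all dorsal arrays lay above all central arrays of the batch in both batches, which 1.58% of all tested genes did. Of the 10 lower members, Cox6a2, Atp5b, Ndufa12 and Ndufb5 passed in all 24 fits that each left out 1 array. Under the alternatives described at the end, Cox6a2 passed in 12 of 15, Atp5b and Ndufb5 in 10 of 16, and Ndufa12 in 9 of 16. None of these passed without a batch term, in batch B alone or with pulsed arrays only. In the fits with 1 array left out, the other members passed less often. Atp5k passed in 18, Cox5b in 19 and Ndufv1 in 17 of the 24 fits, with highest adjusted p of 0.0727, 0.0725 and 0.0695 (limma).

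In ventral against dorsal SCN, 1 of 80 members was lower, Cox6a2, and 0 were higher, while 1.98% of all tested genes were lower and 2.63% higher, 4.61% in either direction. This comparison uses the same dorsal arrays as the one of central with dorsal SCN. The difference was below 0 for 73 of 80 members, with a median of -0.20, against 48.5% of all tested genes and a median of 0.01. Without adjustment, 30 of 80 had p under 0.05, against 15% of all tested genes.

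Cox6a2 in ventral SCN had values of 4.34 and 4.10 (sham) and 4.12 and 3.66 (pulsed) in batch A, and of 4.95 and 5.01 (sham) and 5.08 and 4.76 (pulsed) in batch B. Ventral and dorsal arrays overlapped in both batches, through dorsal pulsed replicate 2 (3.96) and dorsal pulsed replicate 3 (5.05). The log2 difference from dorsal SCN was -0.78 ± 0.186 (SE, adjusted p = 0.0133, limma), and it passed in all 24 fits that each left out 1 array.

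The next members in ventral against dorsal SCN were Ndufv1 (-0.56, adjusted p = 0.06, limma), Ndufa5 of the matrix arm (-0.47, adjusted p = 0.0607, limma) and Atp5k (-0.39, adjusted p = 0.0697, limma), which did not pass. Ndufa5 was the member whose dorsal arrays lay above all ventral arrays in both batches (11.04 to 11.31 against 10.79 to 11.0004 in batch A, and 11.14 to 12.38 against 10.82 to 11.06 in batch B), and 0.897% of all tested genes showed this. The complex I median was -0.29, and those of complexes II, III, IV and ATP synthase were -0.18, -0.13, -0.10 and -0.14. Members above 0 were Cox6b2, Atp5g2, Atp5l, Cox7a2, Ndufs4, Ndufa9 and Ndufa4l2.

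With the replicate number as a block, 4 members were lower in ventral than in dorsal SCN (2.49% of all tested genes were lower). With treatment and number together as a random block, 7 were (3.04%). Within batch A alone and within batch B alone 0 members were lower (0.408% and 0.482% of all tested genes), with medians of -0.20 and -0.22. With sham arrays only and with pulsed arrays only 0 were lower (0.593% and 0.919%). The count was 7 without dorsal pulsed replicate 3 (2.25%), 5 without dorsal pulsed replicate 4 (2.4%) and 3 without dorsal pulsed replicate 2 (2.17%). It was 2 without dorsal pulsed replicate 1 (1.84%), dorsal sham replicate 1 (1.62%) or 4 (1.81%), or central sham replicate 3 (1.89%), which enters through the shared estimate of spread.

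Between ventral and central SCN no member passed the adjusted test, with 0 of 80 called (limma), 1 member at an unadjusted p under 0.05 (12.9% of all tested genes), and 5.2% of all tested genes called. The median difference of 0.05 matched the 0.05 of all tested genes. More of the members lay above 0: 70 of 80 did, with 12.5% below 0, against 36.5% of all tested genes below 0. The gene with the smallest p was Cox6b2, an isoform known from testis (0.55 ± 0.191, SE, adjusted p = 0.117, limma). The median width of the 95% interval over members was 0.558 on the log2 scale, without adjustment for the number of genes. Differences inside such an interval could not be told from 0 with 8 arrays against 8. Larger ones could still fail the adjusted test, as that of Cox6b2 did.

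Other probe sets of the same genes gave the same sign in most cases. For 47 members, 76 further probe sets passed the filter. Of these, 66 were below 0 in central minus dorsal SCN, with a median of -0.23, and 64 had the sign of the chosen probe set. In ventral minus dorsal SCN 58 were below 0 (median -0.16) and 60 had the same sign. The second Cox6a2 probe set gave -0.46 and -0.69 on a mean signal of 3.65. The second Ndufb5 probe set gave -0.35 in central minus dorsal SCN, and that of Ndufa10 gave -0.10.

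Other genes that serve the pathway were read from the same fit, in which 5.14% of all tested genes were lower in central than in dorsal SCN and 58.7% were below 0, with a median of -0.05. Of 46 tested assembly factors, which build the complexes and hold no subunit, 0 passed in central against dorsal SCN, with 36 below 0 and a median of -0.16. Of 76 mitochondrial ribosomal protein genes 0 passed, with 59 below 0 and a median of -0.16. In the tricarboxylic acid cycle and pyruvate dehydrogenase list, 1 of 16 was lower, Pdha1, a subunit of pyruvate dehydrogenase (-0.38, adjusted p = 0.0247, limma), and 14 were below 0 with a median of -0.28. In glycolysis, 3 of 13 were lower: Ldha (-0.79, adjusted p = 0.00297, limma) and Ldhb (-0.64, adjusted p = 0.0197, limma), which interconvert pyruvate and lactate, and the phosphofructokinase gene Pfkp (-0.53, adjusted p = 0.0106, limma). The pyruvate carrier gene Mpc1 was the 1 lower gene of 13 carriers and porins (-0.60, adjusted p = 0.0294, limma). Of 19 regulators of mitochondrial biogenesis 0 passed in central against dorsal SCN (median 0.03). Ppargc1a, a coactivator of mitochondrial gene expression, was lower in ventral than in dorsal SCN (-0.46, adjusted p = 0.0153, limma) and than in central SCN (-0.48, adjusted p = 0.00891, limma).

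Cell-type markers also moved with region. For each list the mean over its tested markers was taken on each array, relative to the batch mean, whereas the members' array values above are medians. The 10 neuron markers had array means of 0.0203 to 0.550 in dorsal, -0.430 to 0.0199 in central and -0.257 to 0.00955 in ventral SCN. In central against dorsal SCN 3 of 10 were lower (Nefl, Nefm and Syt1), and 8 lay below 0 with a median difference of -0.24. The markers of SCN neurons, 9 of 10 tested, lay the other way, with array means of -0.956 to 0.137 in dorsal, -0.136 to 0.614 in central and -0.249 to 0.361 in ventral SCN. Of these, Vip, Grp and Lhx1 were higher and Avp was lower in central than in dorsal SCN. For 7 oligodendrocyte markers the ranges were -0.389 to 0.251 in dorsal, -1.69 to -0.814 in central and 0.902 to 1.65 in ventral SCN. The 8 astrocyte markers ranged from -0.254 to 0.170, -0.546 to -0.123 and 0.165 to 0.498 in dorsal, central and ventral SCN. The 3 tested of 6 ependymal markers ranged from 0.298 to 1.34, -1.19 to -0.142 and -0.511 to 0.576, the 7 microglial markers from -0.0378 to 0.873, -0.444 to -0.0953 and -0.184 to 0.288, and the 6 tested of 7 vascular markers from -0.433 to 0.662, -0.941 to -0.0916 and -0.0177 to 0.803. None of the 4 blood markers passed the filter. The part of these markers in the region differences was not tested.

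Between pulsed and sham arrays 0 of 80 members passed the adjusted test in any region (limma, 4 pulsed against 4 sham arrays). Over all tested genes 0.719% passed in ventral, 0.385% in central and 0.178% in dorsal SCN, so 0 of 80 lies close to these backgrounds. The number with an unadjusted p under 0.05 was 1 of 80 in ventral, 1 in central and 6 in dorsal SCN, against 6.56%, 8.06% and 10.1% of all tested genes. The median light effect of the members was -0.06 in ventral, -0.00 in central and -0.03 in dorsal SCN, and that of all tested genes was -0.03, -0.08 and -0.03. The median width of the 95% interval was 0.789 on the log2 scale. Light effects inside such an interval could not be told from 0, and larger ones could fail the adjusted test. The 0 calls therefore do not show that these genes were unchanged by light.

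**Figure D4:**
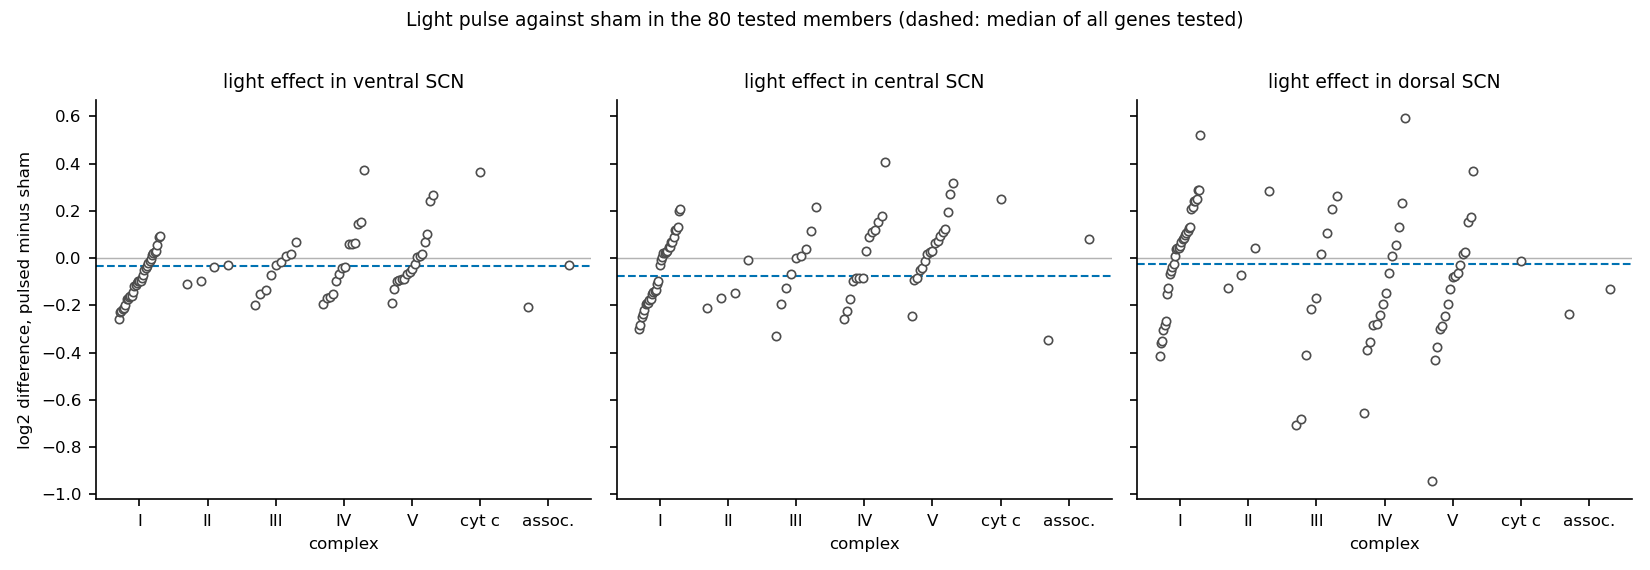
Log2 difference between pulsed and sham arrays (vertical axis) of each of the 80 tested members by complex, in ventral, central and dorsal SCN; the dashed line is the median of all tested genes. No member passed the adjusted test, and the lowest dorsal point is Atp5g2 (-0.94).

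In ventral SCN the smallest p was that of Cycs, which also takes part in apoptosis when released from mitochondria. Its ventral log2 values were 8.75, 8.72, 9.94 and 9.997 on sham replicates 1 to 4 and 8.89, 9.10, 10.44 and 10.43 on pulsed replicates 1 to 4. Pulsed arrays lay above the sham arrays of their batch, and the difference was 0.36 ± 0.158 (SE, adjusted p = 0.636, limma), with a 95% interval from 0.04 to 0.69. In central SCN its difference was 0.25 and in dorsal SCN -0.01, and neither passed.

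In central SCN the smallest p was that of Cox7a2l, a factor that joins complexes III and IV into supercomplexes (-0.35 ± 0.15, SE, adjusted p = 0.55, limma). The sign of the members' central light effect differed between batches. In batch A 68 of 80 members were below 0, with a median of -0.19 (all tested genes -0.22), and in batch B 70 of 80 were above 0, with a median of 0.19 (all tested genes 0.05). In a test of the difference between batches, an alternative chosen after seeing the data, 0 members passed (background of calls 0%, limma). The median of this difference was 0.41 over the members and 0.31 over all tested genes. Batch A holds central pulsed replicate 2, whose median over all tested genes was -0.315.

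In dorsal SCN the members with an unadjusted p under 0.05 were Cox7c, Cox6a2, Atp5g2, Uqcrc1, Cox6b1 and Uqcrh. Cox7c, a small complex IV subunit, had sham values of 4.00, 4.15, 6.55 and 6.68 and pulsed values of 4.69, 4.97, 6.59 and 7.50 on replicates 1 to 4. Batch A arrays were apart and batch B arrays overlapped, with a difference of 0.59 ± 0.231 (SE, adjusted p = 0.446, limma). Cox6a2 had a difference of -0.65 (adjusted p = 0.451, limma) on the dorsal values given above.

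For Atp5g2, Uqcrc1, Uqcrh and Cox6b1, dorsal pulsed replicate 4 was the lowest array of its batch. Atp5g2 had dorsal sham values of 9.56, 10.30, 10.79 and 10.51 and pulsed values of 9.73, 9.68, 10.28 and 7.70, and the value of 7.70 was below all other 23 arrays. Its light effect was -0.94 (adjusted p = 0.451, limma), and -0.26 without that array. Uqcrc1, a core protein of complex III, had dorsal sham values of 5.34, 6.11, 9.10 and 8.80 and pulsed values of 5.81, 5.14, 8.47 and 7.21, and its effect of -0.68 (adjusted p = 0.453, limma) became -0.34 without that array. Uqcrh, the hinge subunit of complex III, read 9.25 there against 11.31 on dorsal pulsed replicate 3, and its effect of -0.71 became -0.16 without it. Cox6b1 read 10.05 against 10.84, and its effect of -0.39 became -0.18. Without that array Cox6a2 kept an unadjusted p under 0.05 (-0.83, adjusted p = 0.32, limma), and the other 5 of these members did not. The same array gave the highest dorsal values of Ndufb5, Ndufv1 and Cox5b. Without it the median dorsal light effect over the 80 members was -0.11, with 67 below 0 and 0 called (background 0.304%).

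Averaged over the regions, on 8 composite values, 0 of 80 members passed (background 0.408%), with a median of -0.04 that equalled the -0.04 of all tested genes. Atp5g2 was the 1 member with an unadjusted p under 0.05, against 9.52% of all tested genes (-0.46, adjusted p = 0.454, limma). In the moderated F test of a difference in the light effect between regions, 0 of 80 members were called, with 0 at an unadjusted p under 0.05, against 0.00741% of all tested genes called. The smallest p was that of Cox7c (0.0752 without adjustment), whose light effects were -0.17, 0.41 and 0.59 in ventral, central and dorsal SCN. In the pathway lists, the phosphate carrier gene Slc25a3, which supplies phosphate to ATP synthase, rose after the pulse in ventral SCN (0.70, adjusted p = 0.0351, limma), the 1 of 13 carriers and porins that did, and 0 genes of the other pathway lists passed in any region. Among the cell-type markers, Prok2, a neuropeptide gene of SCN neurons, was higher after the pulse in ventral SCN (2.61, adjusted p = 0.0235, limma) and in central SCN (2.62, adjusted p = 0.0345, limma). The astrocyte gene Gfap was higher after the pulse in ventral SCN (1.28, adjusted p = 0.018, limma) and in dorsal SCN (1.33, adjusted p = 0.0319, limma). The other tested markers of both lists did not pass. Of the 9 tested SCN neuron markers, 5 lay below 0 in ventral SCN (median -0.001) and 4 in central SCN (median 0.26), and only Prok2 passed. In dorsal SCN all 9 lay above 0 (median 0.46) and 0 passed. Averaged over the regions 7 lay above 0 (median 0.44), and only Prok2 passed. Of the 8 astrocyte markers, 6 lay below 0 in ventral SCN (median -0.05) and 5 in dorsal SCN (median -0.02), and only Gfap passed.

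The members with the lowest and highest signal in each complex are given for orientation, since signals of different probe sets cannot be ranked as levels. Mean log2 values over the 24 arrays were 3.67 for Ndufb1 and 11.95 for Ndufc2 among the tested genes of complex I, 8.07 for Sdhc and 10.79 for Sdha in complex II, and 6.92 for Uqcrc1 and 11.35 for Uqcrb in complex III. They were 3.95 for Cox4i2 and 12.51 for Cox7a2 among tested genes of complex IV, and 8.96 for Atp5g1 and 11.98 for Atp5a1 in ATP synthase. Tissue-restricted isoforms (Cox4i2, Cox6a2, Cox6b2, Cox8c and Ndufa4l2) had means from 3.95 to 4.64, near the filter level.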

How the data were processed

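Affymetrix arrays were run on 24 samples, and the deposited table holds the authors' log2 expression values of 45101 probe sets. GCRMA 2.32.0, MAS5 and R 3.0.2 appear in the submitters' processing notes, with no role stated. The normalization of the batches is not described there. Genes were named from the platform annotation through probe sets with exactly 1 symbol, and the probe set with the highest mean stood for a gene. Genes with a log2 value over 4 on 4 or more arrays were tested, 13494 of 18193.

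One fit in limma 3.58.1 (R 4.3.3) on all 24 arrays, with 6 group means and batch, gave light effects (4 against 4 arrays) and region differences (8 against 8), two-sided, with Benjamini-Hochberg adjustment over all tested genes and a threshold of 0.05. It left 17 residual degrees of freedom. For the averaged light effect, the 3 regions of each treatment and replicate number were first averaged, giving 8 composites. Errors after ± are standard errors of log2 differences. Precision is limited by the number of arrays. The scripts were tested on simulated data.

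Arrays of the same replicate number deviated together within a batch (correlations of deviations from 0.209 to 0.623 in batch A and 0.0960 to 0.460 in batch B). The lowest value was between central pulsed and central sham arrays, so counts from a fit with the number as a block are given beside the region differences and not beside the light effects. All p-values and values of single genes come from the fit without the block. The labels do not say what a number marks.

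Named members are those that passed a test, the smallest p per complex and comparison, the lowest and highest signal per complex, and isoform pairs; Ndufs7, Ndufs8, Ndufa5 and other members outside this rule were chosen after their values were seen. The members, the pathway lists and the marker lists were chosen with earlier results of these data known. The alternatives tried concerned batch, scaling, filter, probe set, array weights, variance trend, replicate block and omitted arrays.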

Additional observations from a re-analysis of the deposited data

Results flagged for a closer look

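In groups of 4 arrays, 90 sets of values (array medians by complex and the members lower in central SCN, batch mean removed) were searched for an array far from the other 3, and 8 were found, where chance alone flags about 1 in 20. Values are log2 relative to the batch mean, each with its nearest neighbour. The complex II median of central sham replicate 1 was 0.119 (next -0.0985), and the complex III median of dorsal pulsed replicate 1 was 0.277 (next 0.0259). Ndufb5 on central sham replicate 1 was 0.0768 (next -0.275), and Cox5b on ventral sham replicate 1 was -0.0115 (next -0.109). Ndufv1 on ventral pulsed replicate 2 was -0.371 (next -0.0768), and Ndufa10 on central pulsed replicate 2 was -0.761 (next -0.179). Ndufa13 was 0.897 on dorsal pulsed replicate 4 (next 0.169) and -0.104 on dorsal sham replicate 1 (next 0.247).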

How the results depend on the processing

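Of the light comparisons, 0 members were called under each alternative that gave a value, replicate blocks included, except 1 in dorsal SCN with array weights. Counts of lower members in central against dorsal SCN (10 as reported) were 0 without a batch term, 1 with the arrays of those regions alone, 1 in batch A alone, 0 in batch B alone, 5 with arrays centred on their medians, 25 with array weights, 16 with a variance trend, 18 with a replicate block, 27 with a random replicate block, 1 with sham and 0 with pulsed arrays only, and between 12 and 15 under the other alternatives. In ventral against dorsal SCN (1 as reported) they were 0 without a batch term, in either batch alone, with a filter at 6, and with sham or pulsed arrays only, 4 with the mean of all probe sets, 6 with quantile normalization, 6 with a variance trend, 14 (13 of them lower) with array weights, 4 with a replicate block, 7 with a random replicate block, and 7 without the arrays that stand apart. In ventral against central SCN (0 as reported) 1 was called with the arrays of those regions alone, with array weights and with a random replicate block. Fewer arrays entered the fits of single batches, regions or treatments. For the other alternatives the cause was not tested. In the comparisons with dorsal SCN, shares of all tested genes are given above for single batches, single treatments and replicate blocks. For the remaining alternatives no such share is given here. Those counts therefore cannot be set against the calls among all tested genes.

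With 1 array left out, counts ranged from 4 to 20 (central against dorsal), 1 to 7 (ventral against dorsal), 0 to 1 (ventral against central) and 0 to 0 (light). Medians ranged from -0.298 to -0.218, -0.223 to -0.177 and 0.0233 to 0.0910 for these region differences, and from -0.0856 to -0.0370, -0.0667 to 0.0521, -0.105 to 0.0155 and -0.0843 to 0.0178 for the ventral, central, dorsal and averaged light effects. For the averaged light effect, the whole composite that held the array was left out. The median central light effect was -0.19 in batch A and 0.19 in batch B. Single genes that changed sign were Cycs (central light -0.172, ventral minus central -0.0324 and dorsal light 0.0788 in batch A alone, dorsal light 0.00959 with quantile normalization, 0.335 with the mean of all probe sets and 0.00417 without the arrays that stand apart, and -0.0998 to 0.0782 with 1 array left out), Uqcr11 (central light 0.0406 in batch B) and Sdhb (averaged light 0.0499 in batch B). None of these passed a test.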
